A study of Mus musculus with 5 samples.

Results

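The genes described here are 10 genes of melanin synthesis and of the melanosome, the organelle in which pigment is made: Tyr, Tyrp1, Dct, Pmel, Mlana, Slc45a2, Slc24a5, Oca2, Gpr143 and Car14. They were chosen by name, and all 10 were found among the 54699 genes of the deposited table. Each had an FPKM (sequenced fragments per gene length, here scaled between libraries by a divisor that equalled median-of-ratios size factors) of at least 1 in at least 1 library, as had 12842 genes in all. The samples were 5 RNA-sequencing libraries of B16F10, a pigmented mouse melanoma cell line, and each group had 1 library. In the Myod1 expression group lentivirus drove forced expression of mouse Myod1, a transcription factor of skeletal muscle. In the Pparg expression group it drove mouse Pparg, a nuclear receptor of fat cells. Cells given the empty expression vector were their shared control, and these 3 cultures were collected on day 8. In the Setdb1 knockdown group a lentiviral short hairpin RNA (shSetdb1) targeted Setdb1, a histone methyltransferase, and its control carried the empty knockdown vector (shCtrl), both collected on day 7. All 5 cultures were infected with lentivirus and grown in DMEM with serum, and the labels give both controls as wild type. The promoter of the vectors, and whether cells were cloned or sorted after infection, are not given in the sources used here.

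Melanin is made from tyrosine by enzymes of the tyrosinase family, on fibrils that fill the young melanosome. Transporters in the melanosome membrane set its pH and ion content, on which tyrosinase activity depends. In melanocytes many of these genes are direct targets of Mitf, a transcription factor that binds the core letters CATGTG, often within the longer TCATGTG, and CACGTG near the start of pigment genes.

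Groups of 1 library leave every difference without a check by replicates, and no test between groups was run. Intervals are 95% intervals from read counts and cover counting error only. A gene was counted as changed at a log2 ratio of at least 1 in size, that is 2-fold, with 1 added to each FPKM. The verbs rose and fell are kept for such genes. These are bulk libraries, so fewer pigmented cells and less pigment RNA per cell cannot be told apart.

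The 10 pigment genes were a large part of the transcriptome of the control cells and a much smaller part after forced expression of Myod1 or Pparg. They took 2.13% of all reads in the empty expression vector control (2.128 to 2.142) and 2.36% in the empty knockdown vector control (2.353 to 2.368). They took 0.724% with Myod1 expression (0.720 to 0.728) and 0.660% with Pparg expression (0.656 to 0.663). With Setdb1 knockdown the share was 2.53% (2.519 to 2.534), above both controls. Against its own control the higher share rests on Pmel, with 184387 of 439204 pigment gene reads against 114701 of 382722. The log2 ratio against that control was below 0 in 7 of the 10 genes. Among the 10 genes with the most reads, 3 were pigment genes in each control and with Setdb1 knockdown, and 0 were with Myod1 or Pparg expression. These shares do not depend on how the libraries were scaled, but they do depend on what else was transcribed. In the Myod1 expression library 5 muscle genes (Myog, Ckm, Acta1, Myh3 and Tnnt3) together reached an FPKM of 20991, against 0.396 in its control.

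**Figure D1:**
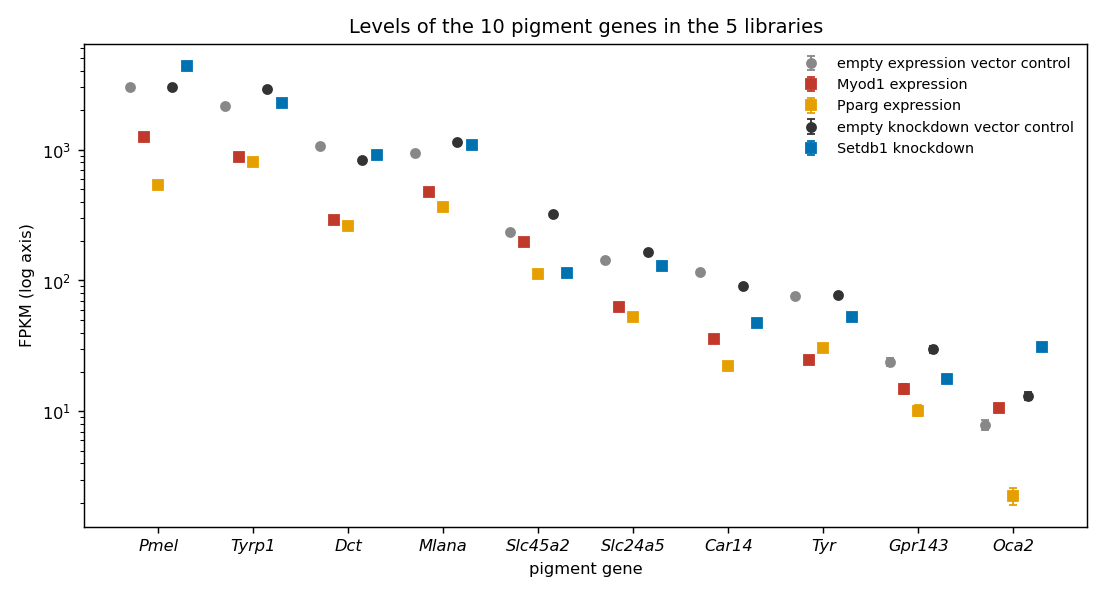
Level of each pigment gene (FPKM, log axis) in each library, with bars for the 95% counting interval where it is wider than the symbol. Circles are the 2 controls and squares the 3 treated libraries. The Pparg expression squares lie below both controls for all 10 genes, and Oca2 with Setdb1 knockdown (31.1) lies above both.

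The tyrosinase family was examined first. Its 3 members are Tyr, the rate-limiting enzyme that oxidises tyrosine, Dct, the dopachrome tautomerase that acts on a later intermediate, and Tyrp1, which acts after Dct and stabilises tyrosinase. All 3 genes fell with Myod1 expression and with Pparg expression, and none of the 3 reached the 2-fold limit with Setdb1 knockdown. RefSeq windows on assembly GRCm38.p6, from 250 bases before to 50 bases after the start site that RefSeq's table uses, were matched for 6 of the 10 genes. That site lay within 6 bases of the start of the deposited gene model in 5 of them. In Tyrp1 it lay 90 bases inside the model, so the window runs from 160 bases before to 140 bases after the deposited start. The windows of the tyrosinase family are shown because these 3 genes fell together in both expression groups. Those of Oca2, which rose after Setdb1 knockdown, and of Car14, which fell in both expression groups with no match in its window, are shown beside them. The windows were chosen with the values and matches known. Capitals mark matches to CATGTG or TCATGTG, read on either strand (CACATG and CACATGA on the reverse). A TCATGTG match always contains a CATGTG match.
Tyr, chr7:87493463-87493762, minus strand: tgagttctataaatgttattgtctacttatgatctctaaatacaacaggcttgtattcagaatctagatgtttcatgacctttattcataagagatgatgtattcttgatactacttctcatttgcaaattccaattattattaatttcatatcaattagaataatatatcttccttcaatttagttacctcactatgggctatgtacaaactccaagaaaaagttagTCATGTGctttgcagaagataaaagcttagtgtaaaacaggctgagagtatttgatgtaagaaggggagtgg
Tyrp1, chr4:80833963-80834262, plus strand: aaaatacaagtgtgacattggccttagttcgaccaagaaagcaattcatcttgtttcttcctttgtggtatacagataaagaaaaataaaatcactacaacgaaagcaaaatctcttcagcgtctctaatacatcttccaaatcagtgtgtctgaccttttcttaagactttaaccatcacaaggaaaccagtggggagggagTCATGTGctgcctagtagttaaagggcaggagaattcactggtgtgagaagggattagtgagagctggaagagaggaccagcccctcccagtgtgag
Dct, chr14:118052197-118052496, minus strand: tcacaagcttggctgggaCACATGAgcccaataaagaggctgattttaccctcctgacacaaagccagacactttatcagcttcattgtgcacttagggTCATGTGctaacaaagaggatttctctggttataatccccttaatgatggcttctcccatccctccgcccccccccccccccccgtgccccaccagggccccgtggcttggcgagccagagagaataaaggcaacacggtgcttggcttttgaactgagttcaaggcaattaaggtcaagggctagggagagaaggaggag
Oca2, chr7:56239509-56239808, plus strand: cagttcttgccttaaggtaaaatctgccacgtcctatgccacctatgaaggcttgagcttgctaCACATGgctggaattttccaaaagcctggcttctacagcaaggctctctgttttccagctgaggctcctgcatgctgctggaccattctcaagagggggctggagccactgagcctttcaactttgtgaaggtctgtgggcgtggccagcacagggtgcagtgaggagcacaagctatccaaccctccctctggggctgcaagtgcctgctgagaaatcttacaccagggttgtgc
Car14, chr3:95904636-95904935, minus strand: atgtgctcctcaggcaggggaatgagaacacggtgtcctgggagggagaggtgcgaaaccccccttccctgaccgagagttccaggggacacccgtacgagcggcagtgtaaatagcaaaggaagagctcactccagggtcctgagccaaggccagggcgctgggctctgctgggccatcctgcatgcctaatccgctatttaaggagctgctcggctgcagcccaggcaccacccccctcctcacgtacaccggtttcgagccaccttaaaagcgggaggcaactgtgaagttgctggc

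Counted from the window's start site, the letters TCATGTG stood 22 bases before it in Tyr and 47 bases before it in Tyrp1, which is 43 bases after the deposited Tyrp1 start. Dct held them at 151 bases before the start and, on the reverse strand, at 232. Slc24a5 held them on the reverse strand 13 bases before the start. The Oca2 window held CATGTG without the leading T, on the reverse strand 186 bases before the start, and the Car14 window held no match. Of all 32851 promoter windows of 300 bases, 14.2% hold CATGTG, 3.77% hold TCATGTG and 7.15% hold CACGTG. Among the 6 pigment genes with a window, 5 hold CATGTG, 4 hold TCATGTG and 0 hold CACGTG. Car14, whose window held no match, fell with Myod1 expression (-1.67) and with Pparg expression (-2.34), and Oca2 fell with Pparg expression (-1.44). A link between matches and changes in level was not tested. These matches describe the letters and were not tested as binding sites.

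Tyr (ENSMUSG00000004651, chromosome 7, 87424771 to 87493512, minus strand) had an FPKM of 76.2 in the empty expression vector control, 24.5 with Myod1 expression, 30.6 with Pparg expression, 76.9 in the empty knockdown vector control and 52.9 with Setdb1 knockdown. The controls were alike within counting error, and all 3 treated libraries lay below them, lowest with Myod1 expression. The level with Myod1 expression was 32.2% of its control (30.8 to 33.6), a log2 ratio of -1.60. With Pparg expression it was 40.1% (38.7 to 41.7), or -1.29. After Setdb1 knockdown it was 68.8% (66.6 to 70.9), or -0.53, short of 2-fold. With GC content and length trends removed that value was 0.06, so its direction rests on this choice.

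Tyrp1 (ENSMUSG00000005994, chromosome 4, 80834123 to 80851719, plus strand) had an FPKM of 2172 in the empty expression vector control, 877 with Myod1 expression, 802 with Pparg expression, 2885 in the empty knockdown vector control and 2285 with Setdb1 knockdown. The Setdb1 knockdown level lay between the controls, which themselves differed 1.33-fold, and the other 2 treated libraries lay far below. Tyrp1 stood at 40.4% of its control with Myod1 expression (39.9 to 40.9, log2 ratio -1.31) and at 36.9% with Pparg expression (36.5 to 37.3, -1.44). With Setdb1 knockdown it stood at 79.2% (78.6 to 79.8, -0.34), but against the other control its log2 ratio was 0.07. It ranked 11 by FPKM in the empty expression vector control and 45 with Myod1 expression, and 9 both in the empty knockdown vector control and with Setdb1 knockdown.

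Dct (ENSMUSG00000022129, chromosome 14, 118012790 to 118052244, minus strand) had an FPKM of 1067 in the empty expression vector control, 292 with Myod1 expression, 261 with Pparg expression, 835 in the empty knockdown vector control and 906 with Setdb1 knockdown. All 4 other libraries lay below the empty expression vector control, and the Myod1 and Pparg expression libraries lay far below both controls. Dct stood at 27.4% of its control with Myod1 expression (27.0 to 27.8, log2 ratio -1.86) and at 24.4% with Pparg expression (24.1 to 24.8, -2.03). Against its own control it fell furthest of the tyrosinase family. Against the other control it did not, with -1.51 and -1.68 beside -1.61 and -1.30 for Tyr and -1.72 and -1.85 for Tyrp1. The level after Setdb1 knockdown was 108% (107 to 109, 0.12), a value between the controls.

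The ratio of Tyrp1 to Tyr, taken within a library on FPKM, was 28.5 in the empty expression vector control, 35.8 with Myod1 expression and 26.2 with Pparg expression. It was 37.5 in the empty knockdown vector control and 43.2 with Setdb1 knockdown. The ratio of Dct to Tyr was 13.99 and 10.9 in the 2 controls, 11.9 with Myod1 expression, 8.52 with Pparg expression and 17.1 after Setdb1 knockdown. The Pparg value thus lay below both controls and the Setdb1 value above both.

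The structural genes were next. Pmel encodes the protein whose amyloid fibrils form the melanosome matrix, and Mlana a small membrane protein that binds it. Pmel (ENSMUSG00000025359, chromosome 10, 128704195 to 128720238, plus strand) had an FPKM of 3014 in the empty expression vector control, 1248 with Myod1 expression, 536 with Pparg expression, 2993 in the empty knockdown vector control and 4347 with Setdb1 knockdown. It was the pigment gene with the highest level in 4 of the 5 libraries and gave way to Tyrp1 with Pparg expression. The controls were alike within counting error, 2 treated libraries lay below them and 1 above.

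Pmel stood at 41.4% of its control with Myod1 expression (40.96 to 41.9, log2 ratio -1.27). With Pparg expression it stood at 17.8% (17.5 to 18.03, -2.49), which ranked 3 from the lowest log2 ratio among the 12842 genes compared and 11 from the lowest against the other control. The level after Setdb1 knockdown was 145% (144 to 146), a log2 ratio of 0.54, which is short of 2-fold but above both controls. With GC content and length trends removed that log2 ratio was 0.18. The gene overlaps Cdk2 on the other strand by 837 bases, and the strand setting of the counting is not given in the sources used here. Cdk2 had at most 7662 reads in a library, against 112838 and 114701 reads of Pmel in the controls, and 3407 against 23541 with Pparg expression, where Pmel was lowest.

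Mlana (ENSMUSG00000024806, chromosome 19, 29697921 to 29708448, plus strand) had an FPKM of 947 in the empty expression vector control, 475 with Myod1 expression, 365 with Pparg expression, 1146 in the empty knockdown vector control and 1082 with Setdb1 knockdown. The Setdb1 knockdown level lay between the controls. Mlana stood at 50.2% of its control with Myod1 expression (48.5 to 52.0), a log2 ratio of -0.99, just short of the limit. It passed the limit against the other control (-1.27). With Pparg expression it stood at 38.6% (37.2 to 39.96, -1.37). The authors' table gives Mlana a length of 623 bases, where the merged exons of GENCODE release M21 cover 1057, so its FPKM compared with other genes depends on the gene model.

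Pmel and Mlana did not keep their proportion. The ratio of Pmel to Mlana was 3.18 and 2.61 in the empty expression vector and empty knockdown vector controls. The ratio with Myod1 expression was 2.63, against 1.47 with Pparg expression and 4.02 after Setdb1 knockdown. The last of these values lies above both controls and the Pparg value below both.

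The 3 transporter genes behaved least alike. Slc45a2 encodes a transporter that keeps the melanosome from becoming too acidic, Slc24a5 a cation exchanger of pigment cells and Oca2 an anion channel that raises melanosome pH. Slc45a2 (ENSMUSG00000022243, chromosome 15, 11000721 to 11029233, plus strand) had an FPKM of 234 in the empty expression vector control, 196 with Myod1 expression, 112 with Pparg expression, 321 in the empty knockdown vector control and 113 with Setdb1 knockdown. Its Myod1 expression level was the treated level nearest to the controls, while the Pparg expression and Setdb1 knockdown levels were low and alike within counting error.

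Slc45a2 stood at 83.8% of its control with Myod1 expression (81.5 to 86.1, log2 ratio -0.25) and at 48.0% with Pparg expression (46.5 to 49.5, -1.05). With Setdb1 knockdown it stood at 35.3% (34.3 to 36.4, -1.49), and it was the pigment gene that fell in that comparison. Against the other control the Setdb1 knockdown value was -1.04. With FPKM divided by the column sum, the Pparg expression value was -0.95, short of the limit. The controls differed 1.37-fold in this gene.

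Slc24a5 (ENSMUSG00000035183, chromosome 2, 125068124 to 125088677, plus strand) had an FPKM of 143 in the empty expression vector control, 62.6 with Myod1 expression, 52.4 with Pparg expression, 165 in the empty knockdown vector control and 129.9 with Setdb1 knockdown. All 3 treated libraries lay below both controls, the Setdb1 knockdown library by the least. Slc24a5 stood at 43.7% of its control with Myod1 expression (41.6 to 45.9, log2 ratio -1.18) and at 36.6% with Pparg expression (34.9 to 38.5, -1.43). In the Setdb1 comparison it stood at 78.5% (75.7 to 81.4, -0.35). Myef2 overlaps the gene on the other strand by 4050 bases and had 1190 and 826 reads in the controls, against 5445 and 6446 of Slc24a5. With Myod1 expression it had 300 against 2292, with Pparg expression 841 against 2340 and after Setdb1 knockdown 326 against 5601.

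Oca2 (ENSMUSG00000030450, chromosome 7, 56239760 to 56536518, plus strand) had an FPKM of 7.80 in the empty expression vector control, 10.6 with Myod1 expression, 2.24 with Pparg expression, 13.2 in the empty knockdown vector control and 31.1 with Setdb1 knockdown. It was the lowest of the pigment genes in every library except the Setdb1 knockdown library, where Gpr143 was lower. Its highest level was 13.9 times its lowest, the widest range of the 10 genes. Oca2 stood at 28.7% of its control with Pparg expression (24.0 to 34.2, log2 ratio -1.44) and at 236% with Setdb1 knockdown (219 to 256, 1.18), so it fell in the first and rose in the second. With Myod1 expression it stood at 136% (121 to 153, 0.40), but its log2 ratio was -0.29 against the other control, since the controls differed 1.69-fold. The Pparg expression value rests on 170 reads.

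Slc45a2 and Oca2 moved apart after Setdb1 knockdown. The ratio of Slc45a2 to Oca2 was 29.95 and 24.4 in the controls and 3.64 with Setdb1 knockdown. It was 18.5 with Myod1 expression and 50.1 with Pparg expression.

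Of the remaining genes, Gpr143 encodes the melanosome receptor that is mutated in ocular albinism and bears on melanosome size. Gpr143 (ENSMUSG00000025333, chromosome X, 152781921 to 152808646, plus strand) had an FPKM of 23.7 in the empty expression vector control, 14.9 with Myod1 expression, 10.1 with Pparg expression, 29.7 in the empty knockdown vector control and 17.6 with Setdb1 knockdown. All 3 treated libraries were below both controls. The gene fell with Pparg expression, to 42.7% of its control (37.7 to 48.3, log2 ratio -1.15). It stood at 62.8% with Myod1 expression (55.9 to 70.6, -0.64) and at 59.4% with Setdb1 knockdown (53.7 to 65.6, -0.72).

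Car14 encodes a carbonic anhydrase of the cell membrane, an enzyme of acid and bicarbonate balance. Car14 (ENSMUSG00000038526, chromosome 3, 95897768 to 95904691, minus strand) had an FPKM of 116 in the empty expression vector control, 35.9 with Myod1 expression, 22.2 with Pparg expression, 91.1 in the empty knockdown vector control and 47.3 with Setdb1 knockdown. All 3 treated libraries lay below both controls. Car14 stood at 30.9% of its control with Myod1 expression (29.1 to 32.8, log2 ratio -1.67) and at 19.1% with Pparg expression (17.9 to 20.4, -2.34). The latter ranked 6 from the lowest log2 ratio of the 12842 genes, and 26 against the other control. After Setdb1 knockdown the level was 51.9% of the control (49.2 to 54.7, -0.93), and at -1.28 against the other control. Aph1a overlaps it on the other strand by 521 bases and had 1683 and 1850 reads in the controls, against 4824 and 3875 of Car14. It had more reads than Car14 with Myod1 expression (1771 against 1436) and with Pparg expression (2103 against 1081), and 2145 against 2225 after Setdb1 knockdown. Its own levels had log2 ratios between 0.07 and 0.12 in the 3 comparisons.

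**Figure D2:**
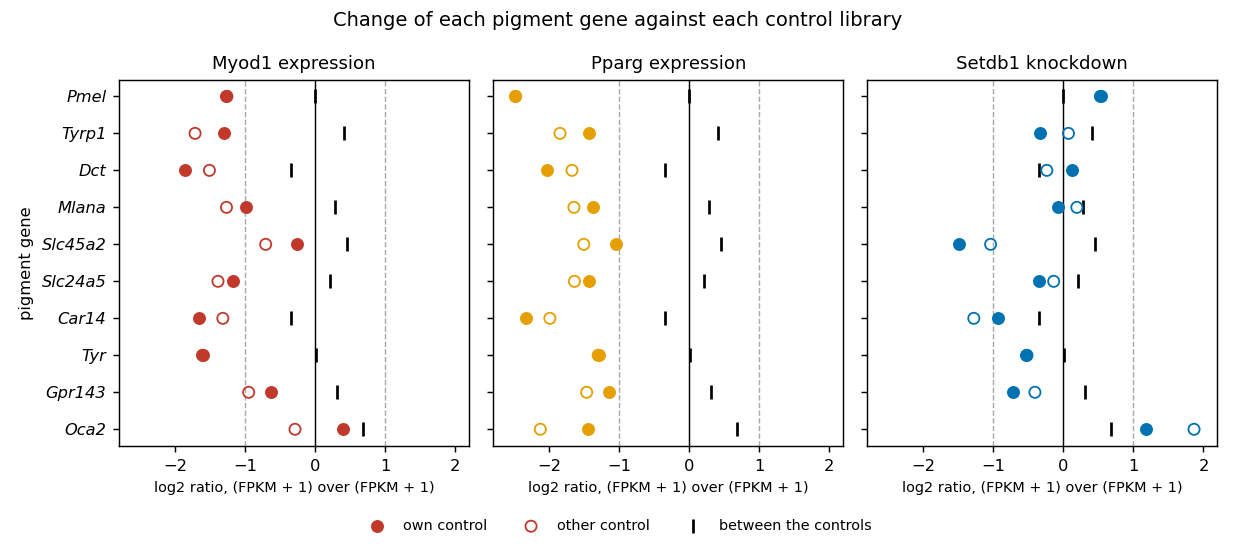
Log2 ratio of each pigment gene in the 3 comparisons, against its own control (filled) and against the other control (open), with black ticks for the log2 ratio of the empty knockdown vector control over the empty expression vector control. Dashed lines mark 2-fold. All filled and open points of the Pparg panel lie at or below -1.05, and those of the Setdb1 panel spread from -1.49 to 1.87.

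The comparisons were then set side by side over the 10 genes. The whole set fell with Pparg expression: 10 of 10 genes passed the 2-fold limit downward, where 2.3% of all genes compared fell and 4.22% rose. These shares depend on the pseudocount: with 0.1 added in place of 1, the share of all genes that fell was 4.66% here, 13.2% with Myod1 expression and 16.3% after Setdb1 knockdown, and the counts of pigment genes were the same. With division by the column sum 9 passed, without Slc45a2 (-0.95). The log2 ratios lay between -2.49 and -1.05, with a median of -1.43, and the median of all genes compared was -0.02. All 10 also fell at least 2-fold against the other control, where 0.849% of all genes fell against both. All 10 levels lay below both controls, a position held by 39.3% of all genes.

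Myod1 expression gave a similar median with more unlike members. Here 6 of 10 genes fell (Tyr, Tyrp1, Dct, Pmel, Slc24a5 and Car14) and 0 rose, where 7.55% of all genes fell and 14% rose. The count was 7, with Mlana added, under the 75th percentile (-1.18), median centring (-1.01), the other control (-1.27) and trend removal (-1.27). The same number as first given, 6, fell against both controls, as did 4.42% of all genes. The median was -1.23 against 0.02 for all genes, and the values ran from -1.86 for Dct to 0.40 for Oca2. The levels of 9 genes lay below both controls, as for 40.5% of all genes, and Oca2 lay between them. The Myod1 and Pparg comparisons share their control library, so the likeness of their values is no independent evidence.

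Scaling bears on the Myod1 comparison. As deposited, 970 genes fell and 1798 rose, so 64.96% of the changed genes were higher. Dividing by the column sum of the FPKM values gave 1907 lower and 1238 higher genes (39.4% higher) and moved the median of all genes by -0.28. Scaling to the 75th percentile gave 1334 and 1489 (52.7%) and moved it by -0.12. Under the column sum 8 pigment genes fell in place of 6, Mlana at -1.39 and Gpr143 at -1.004 being added, and 14.8% of all genes fell. Oca2 then stood at 0.04.

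With Setdb1 knockdown the genes moved apart. Slc45a2 fell and Oca2 rose, 1 gene of 10 in each direction, where 10.3% of all genes fell and 9.34% rose, so these counts are near the background. The count of genes that fell became 2, with Car14 added, under the column sum (-1.01), the 75th percentile (-1.02), the other control (-1.28) and trend removal (-1.09). Slc45a2 and Oca2 also passed the limit against the other control, as did 7.56% of all genes downward and 5.8% upward. The median was -0.34, against 0.00 for all genes, and the range from -1.49 to 1.18 was wider than in the other comparisons. Below both controls lay 5 genes (Tyr, Slc45a2, Slc24a5, Gpr143 and Car14), a position held by 40.3% of all genes. Of these, Tyr stood at 0.06 against its control with GC content and length trends removed. Above both lay Pmel and Oca2, as did 43.1% of all genes, and the other 3 lay between the controls. With the same trends removed Pmel stood at 0.18 against its control.

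The controls differed from each other by less than 2-fold in all 10 genes, where 1.44% of all genes were lower and 1.23% higher in the empty knockdown vector control. Their log2 ratios lay between -0.35 for Dct and 0.68 for Oca2, with a median of 0.24. Of the 40 pairs of libraries next to each other in a gene's order of levels, 37 had counting intervals that did not overlap. The other 3 were the controls in Tyr and in Pmel, and Pparg expression and Setdb1 knockdown in Slc45a2. This count was not made over all genes. The intervals cover counting error only and are narrow at high read counts, so the count does not measure differences between conditions.

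**Figure D3:**
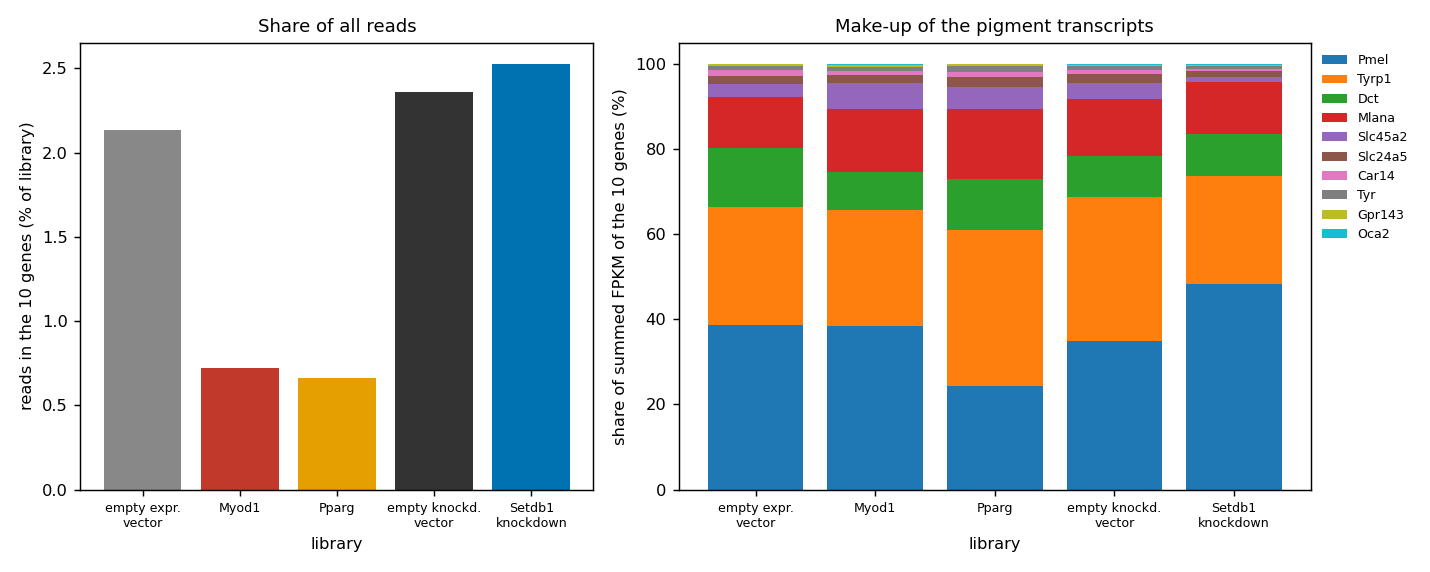
Left, share of all reads of a library that fell in the 10 pigment genes. Right, share of each gene in the summed FPKM of the 10 genes of that library. Pmel makes up 38.6% of the sum in the empty expression vector control, 24.4% with Pparg expression and 48.2% after Setdb1 knockdown.

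The make-up of the pigment transcripts was compared within libraries, which leaves library scaling aside. Pmel made up 38.6% of the summed FPKM of the 10 genes in the empty expression vector control and 38.5% with Myod1 expression. It made up 24.4% with Pparg expression, where Tyrp1 led with 36.6%. With Setdb1 knockdown Pmel made up 48.2%, against 34.98% in its control. Dct took 13.7% in the empty expression vector control and between 9.03% and 11.9% in the other 4 libraries. Slc45a2 took 2.997% and 3.75% in the controls. Its share was larger with Myod1 expression (6.05%) and with Pparg expression (5.11%), and smaller after Setdb1 knockdown (1.26%).

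Other genes of the pathway were taken from lists put together by function. Their counts are to be read against the shares of all genes compared. These were 7.55% lower and 14% higher with Myod1 expression and 2.3% lower and 4.22% higher with Pparg expression. After Setdb1 knockdown they were 10.3% lower and 9.34% higher. For counts against both controls the shares lower were 4.42%, 0.849% and 7.56% in the same order. After Setdb1 knockdown 5.8% were higher against both controls. The share higher against both controls with Myod1 or Pparg expression is not given here, so those counts have no share beside them. Of 8 regulators of pigment genes that could be compared, 4 fell and 0 rose with Myod1 expression and 1 fell in each of the other 2 comparisons, each also against the other control. The 1 of 8 after Setdb1 knockdown is near the 10.3% of all genes. The medians were -0.93, -0.60 and -0.67, and -0.16 between the controls. Irf4, Kit, Ednrb and Lef1 were below an FPKM of 1 in all 5 libraries. Mitf had an FPKM of 28.7 in the empty expression vector control, 8.03 with Myod1 expression, 16.7 with Pparg expression, 41.6 in the empty knockdown vector control and 13.7 with Setdb1 knockdown. It was low in all 3 treated libraries, with log2 ratios of -1.72, -0.75 and -1.54. The medians of the pigment genes were -1.23, -1.43 and -0.34. Against the other control Mitf stood at -2.24, -1.27 and -1.02, and the pigment gene medians at -1.29, -1.66 and -0.19. A link between the level of Mitf and those of the pigment genes was not tested.

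Sox10, a transcription factor of the neural crest that acts on Mitf and on pigment genes, had an FPKM of 278 and 244 in the controls, 185 with Myod1 expression, 185 with Pparg expression and 298 after Setdb1 knockdown. Its log2 ratios were -0.59, -0.59 and 0.29. Pax3, which acts with Sox10 on Mitf, had log2 ratios of -1.60, -0.61 and -0.76. Mc1r, the receptor for melanocyte-stimulating hormone, fell with Myod1 expression (-1.78) and with Pparg expression (-1.68) and stood at -0.75 with Setdb1 knockdown. Tfap2a, a transcription factor of the neural crest, fell with Myod1 expression (-1.18).

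Of the 6 other genes of Pmel processing and the melanosome matrix, 3 fell and 1 rose with Myod1 expression, 2 fell with Pparg expression and 2 rose with Setdb1 knockdown. Against both controls 2 fell and 1 rose with Myod1 expression, 1 fell with Pparg expression and 1 rose after Setdb1 knockdown. Of all genes 4.42% fell against both controls with Myod1 expression, 0.849% fell with Pparg expression and 5.8% rose after Setdb1 knockdown. Gpnmb, a Pmel relative, had an FPKM of 2711 and 1573 in the controls, 724 with Myod1 expression, 1067 with Pparg expression and 980.2 after Setdb1 knockdown. It fell with Myod1 expression (-1.90) and with Pparg expression (-1.34), though against the other control the latter was -0.56. Bace2, a protease that cuts Pmel, fell with Pparg expression (-1.26) and stood at -0.99 with Myod1 expression and -0.45 with Setdb1 knockdown. Apoe, which binds Pmel fragments during fibril formation, rose with Setdb1 knockdown (1.46), from an FPKM of 431 to 1190, and fell with Myod1 expression (-1.08), but stood at -0.97 against the other control, short of the limit. Furin, a protease of the secretory pathway, rose with Myod1 expression (1.41), and Adam10, a membrane protease, fell (-1.17).

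Of 8 other melanosome membrane transport genes, 2 fell with Myod1 expression, 1 fell and 1 rose with Pparg expression, and 1 fell with Setdb1 knockdown, the last near the 10.3% of all genes. Against both controls 2 fell with Myod1 expression, 1 rose with Pparg expression and 1 fell after Setdb1 knockdown. Of all genes 4.42% fell against both controls with Myod1 expression and 7.56% after Setdb1 knockdown. Slc7a11, the cystine transporter used for red and yellow pigment, fell with Myod1 expression (-1.95) to 70 reads against 932 in the control. Mcoln3, a cation channel of endosomes, fell with Myod1 expression (-1.58). Mfsd12, which also serves cystine import into melanosomes, rose with Pparg expression (1.01), and Atp7a, the copper pump that loads tyrosinase, fell with Setdb1 knockdown (-1.25).

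Transport of finished melanosomes along the cytoskeleton uses Rab27a, its linker Mlph and the motor Myo5a. Of 7 genes of this list 1 fell with Myod1 expression, 2 fell with Pparg expression and 4 fell after Setdb1 knockdown, and 0 rose in any of these comparisons. Against both controls the counts were 1, 1 and 3, where 4.42%, 0.849% and 7.56% of all genes fell. The list's median with Setdb1 knockdown was -1.53, where that of the 10 pigment genes was -0.34. Against the other control these medians were -0.84 and -0.19. Myo5a had an FPKM of 22.5 and 21.6 in the controls, 11.6 with Myod1 expression, 10.6 with Pparg expression and 6.05 after Setdb1 knockdown, and it fell in the last 2 (-1.01 and -1.68). Against the other control the Pparg expression value was -0.96, short of the limit. Rab27a stood at -0.74 with Myod1 expression, -1.04 with Pparg expression and -0.93 after Setdb1 knockdown, and Mlph at -0.77, -0.59 and -0.93. Kif5b, a kinesin motor, fell with Setdb1 knockdown (-1.68) and with Myod1 expression (-1.12), and Sytl2, a Rab27a effector, fell with Setdb1 knockdown (-1.53).

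Genes of cargo delivery to the melanosome, which include the BLOC complexes, AP-3 and the HPS proteins, were called in both directions. Of 26 genes compared, 3 fell and 1 rose with Myod1 expression, 0 changed with Pparg expression, and 5 fell and 3 rose with Setdb1 knockdown. Over all genes 7.55% fell and 14% rose in the first comparison and 10.3% fell and 9.34% rose in the last. Against both controls 2 fell with Myod1 expression, and 2 fell and 3 rose after Setdb1 knockdown. Of all genes 4.42%, 7.56% and 5.8% did, in the same order. The medians were -0.29, 0.03 and 0.02. Ap3d1, a subunit of AP-3, had an FPKM of 53.7 and 41.2 in the controls and 10.6 with Setdb1 knockdown (-1.86), and Lyst, a regulator of lysosome-related organelles, fell with Setdb1 knockdown (-1.28) and Myod1 expression (-1.61). Rab32, a small GTPase of cargo delivery, fell with Myod1 expression (-1.06), but the controls differed by 1.08 in it. Hps4 (1.56), Bloc1s3 (1.40) and Rabggta (1.10) rose with Setdb1 knockdown.

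Lysosome genes, which share much of this traffic, served for comparison. Of 24 genes, 2 fell and 1 rose with Myod1 expression, 0 changed with Pparg expression, and 1 fell and 6 rose with Setdb1 knockdown. Against both controls 1 fell and 1 rose in the first, and 1 fell and 4 rose in the last. Of all genes 4.42% fell against both controls in the first, and 7.56% fell and 5.8% rose in the last. The Myod1 counts against its own control are near or below the 7.55% and 14% of all genes. The medians were -0.50, 0.00 and 0.80, so with Pparg expression the lysosome median stood near 0 where that of the pigment genes was -1.43. With Setdb1 knockdown Neu1 (1.86), Ctsa (1.67), Gaa (1.44) and Cln3 (1.15) rose and Atp6v0d1, a proton pump subunit, fell (-1.39). With Myod1 expression Atp6v1a, another pump subunit, fell (-1.44) and Ctsl, a protease, rose (1.05).

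**Figure D4:**
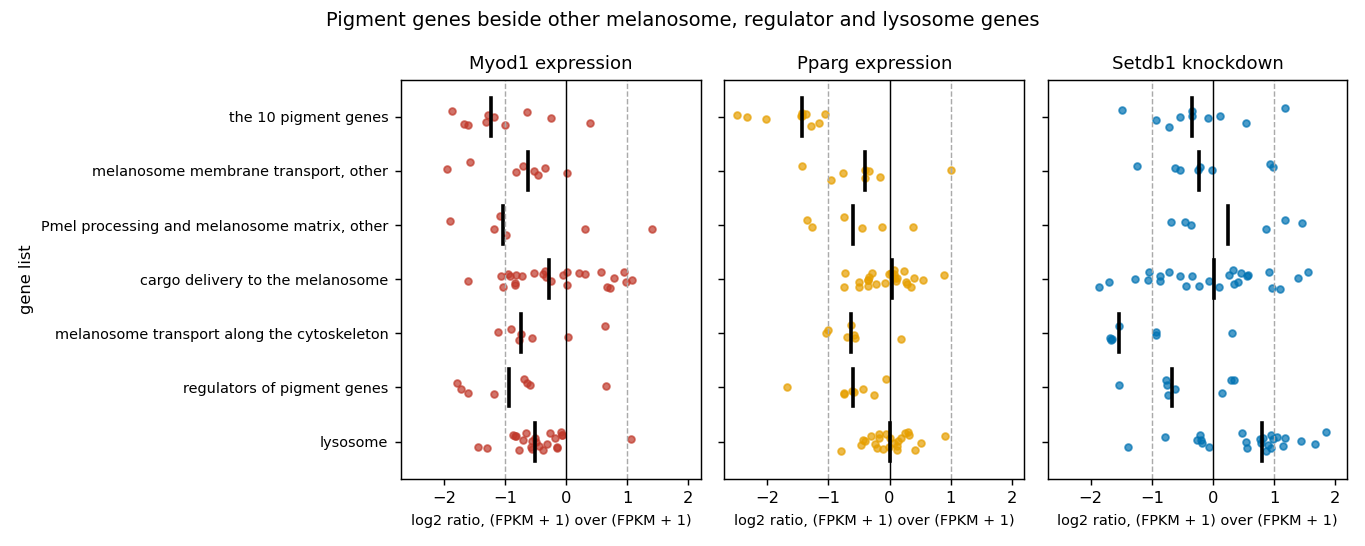
Log2 ratio of every compared gene of each list in the 3 comparisons, 1 point per gene, with a black bar at the list's median and dashed lines at 2-fold. With Pparg expression the pigment genes (median -1.43) lie left of the lysosome genes (0.00), and with Setdb1 knockdown the transport genes have a median of -1.53 (-0.84 against the other control, not drawn).

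The pigment genes were also compared by their profile over the 5 libraries, each centred on its own mean of log2(FPKM + 1). Slc24a5 and Mlana were nearest to the mean of the 10, with a root-mean-square difference of 0.10 and 0.11, and Oca2 (0.76), Slc45a2 (0.60) and Pmel (0.48) were farthest. The closest pair was Mlana and Slc24a5 (0.12) and the most distant pair Slc45a2 and Oca2 (1.16). Of 6533 genes whose range was at least 1, the 5 nearest to the mean of the 10 among other genes were Gm3776 (0.13), Bace2 (0.13), Insc (0.15), Cdk2 (0.18) and Prickle1 (0.19). Gm3776 rests on 8 to 45 reads per library, and Cdk2 overlaps Pmel. Bace2, whose protein cuts Pmel, was also the nearest gene to Slc24a5 (0.07), and Insc, a spindle orientation adaptor, was the nearest to Mlana (0.08).

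For the other genes the nearest profile was that of Slc24a5 for Tyrp1 (0.13), Gsta4 for Dct (0.08), Gsta1 for Pmel (0.26), Cort for Tyr (0.13), Ppih for Gpr143 (0.06), Nckap5l for Car14 (0.24) and Gm17828 for Oca2 (0.42). That of Slc45a2 was Gm26387 (0.09), a small nucleolar RNA with at most 4 reads in a library. Cort had at most 48 reads. Gsta1 and Gsta4 belong to a family of similar genes, so their values are uncertain where reads could match several members. These distances describe 5 libraries and carry no test.

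**Figure D5:**
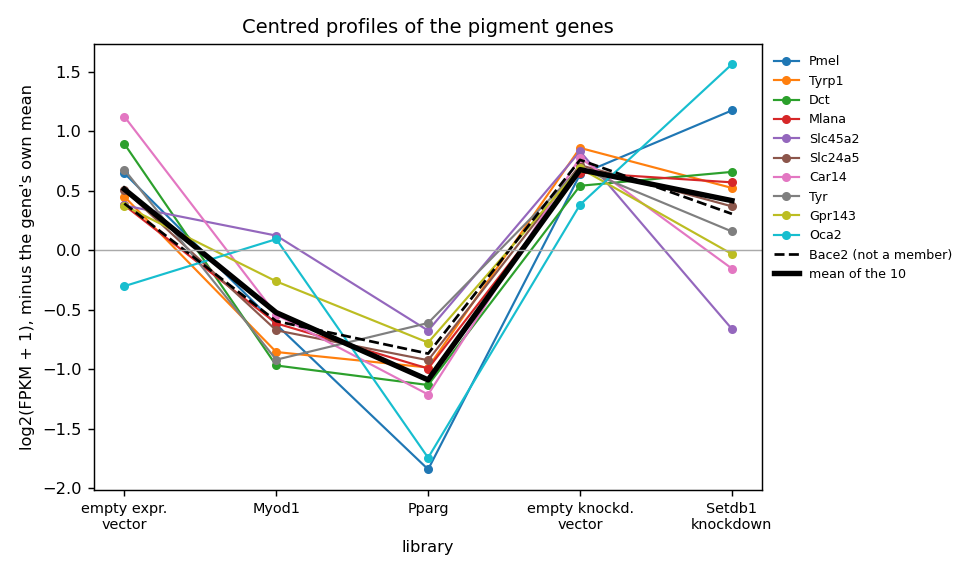
Centred log2(FPKM + 1) of each pigment gene in the 5 libraries, with the mean of the 10 (thick black) and Bace2 (dashed). Lines join the values of 1 gene and imply no order of the libraries. The mean is 0.51 and 0.68 in the controls, -0.52 with Myod1 expression, -1.09 with Pparg expression and 0.42 after Setdb1 knockdown.

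The libraries held between 16214802 and 18300670 reads assigned to genes. The labels were checked against the targeted genes: Myod1 had 7610 reads in its library and Pparg 2514 in its own, with 0 in each of the other 4, and Setdb1 had an FPKM of 0.867 in the knockdown library against 9.82 in its control. The 5 keratinocyte markers summed to an FPKM of at most 0.0738 and the 4 endothelial markers to at most 0.596. The 5 fibroblast markers summed to between 2.73 and 10.9, with Dcn and Lum at 0 in every library. The macrophage list summed to 12.2 and 3.996 in the controls, 4.78 with Myod1 expression, 1.88 with Pparg expression and 18.9 after Setdb1 knockdown. Nearly all of this was Cd68, which also encodes a lysosomal membrane protein, and the other 4 macrophage genes summed to at most 0.478. The adipocyte markers summed to 317 with Pparg expression, against 0.839 in its control. Nearly all of the 317 was Fabp4 (153), Cd36 (146) and Lipe (15.6). Plin1 reached 1.25 and Adipoq 0.0756, which rests on 2 reads. The part of these marker genes in the pigment gene values was not tested.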

How the data were processed

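Per the labels' protocols, TRIzol served for RNA extraction and a NEBNext Ultra RNA kit for the libraries. The submitters' processing notes name CASAVA, HISAT2, featureCounts 1.5.0-p3 and GRCm38. Strand, poly(A) selection, treatment of shared reads and the normalization are not given in the sources used here. The authors deposited 1 table of FPKM values. In it 100% of the values above 0, times gene length, came within 0.02 of a whole multiple of 1 step per library, which gave back the reads. The authors' divisor was 0.859 to 1.10 times the recovered reads and equalled median-of-ratios size factors over 14534 genes (ratio 1.00 in each library), so the deposited FPKM were already scaled between libraries. Of 54495 identifiers shared with GENCODE release M21 (GRCm38), 98.3% had the same position.

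Genes reaching an FPKM of 1 in any library were compared by log2(FPKM + 1), at a 2-fold limit. Levels and shares have Wilson intervals. Percentages of control use FPKM without the added 1, with Clopper-Pearson intervals on the reads of both libraries. The 10 genes, lists and alternatives were chosen with earlier results of these data known. Genes named from the lists are those changed in the same direction against both controls, at most 4 per list and comparison. Mitf, Sox10, Pax3, Rab27a, Mlph and Myo5a were always named. Further values of genes named by this rule, and Gpnmb, Bace2, Apoe, Adam10, Furin and Cd68 in other comparisons, were chosen after their values were seen. The 5 genes nearest to the mean profile and the nearest gene to each pigment gene were named as well. Calculations used Python 3.11.15 with pandas 2.3.3 and scipy 1.17.1. Read recovery and calls were tested on simulated reads with counting error only, scaled by total reads. Variation between cultures was not part of that simulation, so it does not bear on how repeatable the calls are.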

Additional observations from a re-analysis of the deposited data

How the results depend on the processing

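The alternatives were no filter on low values, a pseudocount of 0.1, division by the column sum, scaling to the 75th percentile, centring on the median, the other control, removal of GC content and length trends (medians of 20 bins in 5 rounds, GC for 12679 genes) and a 4-fold limit. The 10 genes stayed at least 2-fold lower with Pparg expression under each of them except the column sum, where Slc45a2 stood at -0.95, and the 4-fold limit, which left 3. At 4-fold no pigment gene was called with Myod1 expression (0) and none in either direction with Setdb1 knockdown (0), and the counts of all genes were 608, 114, 310 and 36 for Myod1 expression, Pparg expression, Setdb1 knockdown and the controls. At the 2-fold limit the counts of all genes were 2768, 837, 2526 and 343 in the same order, and 4044, 1729, 4027 and 952 with a pseudocount of 0.1. The number of pigment genes lower with Myod1 expression, 6, became 7, with Mlana added, under the 75th percentile, centring, the other control and trend removal, and 8 under the column sum. The number lower with Setdb1 knockdown became 2, with Car14 added, under the column sum, the 75th percentile, the other control and trend removal. The median of the 10 genes with Myod1 expression was -1.62 under the column sum, -1.41 under the 75th percentile, -1.29 against the other control and -1.29 with trends removed. With Pparg expression it was -1.33 under the column sum and -1.66 against the other control. With Setdb1 knockdown it was -0.42, -0.43, -0.19 and -0.16 under the column sum, the 75th percentile, the other control and trend removal, and between the controls 0.29 under the column sum and 0.088 with trends removed. The cause of these shifts was not tested. No called pigment gene changed sign under an alternative. Tyr with Setdb1 knockdown, not called, went from -0.53 to 0.06 with trends removed. Other values that were not called changed sign against the other control. These were Oca2 with Myod1 expression (-0.29) and Tyrp1 (0.07), Dct (-0.24) and Mlana (0.19) with Setdb1 knockdown. Between the controls Pmel and Tyr, both near 0, changed sign under some alternatives. No paired analysis was possible because each group has 1 library and the labels give no replicate numbers. Depth limits Oca2 most, with 170 reads at its lowest.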

Other observations

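Genes that overlap a pigment gene on the other strand were compared with it. Cdk2, a kinase of the cell cycle that overlaps Pmel (chromosome 10, 128697939 to 128705031), stood at -0.77 with Myod1 expression, -1.23 with Pparg expression and -0.24 after Setdb1 knockdown (log2 ratios), where Pmel had -1.27, -2.49 and 0.54. In the same order Myef2, which overlaps Slc24a5, had -1.66, -0.66 and -1.23, where Slc24a5 had -1.18, -1.43 and -0.35. Dgka, which overlaps Pmel by 105 bases, had 0.68, 0.09 and 0.90. Without strand, reads in the shared bases cannot be told apart.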
